A study of Mus musculus with 6 samples.

Results

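The miR-15/16 family is a group of miRNAs that begin with nearly the same bases and are made from several separate loci. Its members mmu-miR-15a, mmu-miR-15b, mmu-miR-16, mmu-miR-195 and mmu-miR-497, written below without the mouse prefix, were taken by name from TaqMan arrays, leaving out names with an asterisk, which mark the passenger strand of a precursor. These 5 assays were 5 of the 596 miRNA assays on the arrays. Each gave a Ct value, the cycle at which its fluorescence crossed the threshold, in all 6 samples. The arrays measured the total RNA of whole aortas from female mice that had eaten a high-fat diet (21% crude fat, 0.15% cholesterol) for 12 weeks. The 3 EC-Dicerflox mice were VE-Cadherin-CreERT2 Dicer1flox/flox/Apoe-/-, and the 3 EC-DicerWT mice were VE-Cadherin-CreERT2 Dicer1WT/WT/Apoe-/-. Both groups thus carried the inducible Cre and lacked Apoe, and both received tamoxifen at 2 mg per 20 g of body weight on 5 days. Both had an age label of 6 to 8 weeks. This label is the age at the start of the high-fat diet, not the age when the aortas were taken. The comparison asked which miRNAs of the atherosclerotic aorta depended on Dicer in endothelial cells.

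Dicer cuts hairpin precursors into mature miRNAs, so its loss stops the making of most new miRNAs in the cell that lost it. The VE-cadherin promoter directs the Cre to endothelial cells, which are one layer of an aorta that also holds smooth muscle cells, fibroblasts and leukocytes with intact Dicer1. In such bulk tissue, fewer cells of a type and less RNA per cell cannot be told apart. The Dicer1 mRNA itself is not a target of these arrays, so the deletion was not checked here. Members of the miR-15/16 family pair through their seed, bases 2 to 8, with messenger RNAs of cell-cycle and survival genes, among them cyclins D1 and E1 and Bcl2. The family is known for holding back cell division, and loss of miR-15a and miR-16-1 is a well-known lesion of chronic lymphocytic leukaemia.

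The mature sequences are shown because the shared seed is what makes these 5 RNAs a family, while the bases after it are what a TaqMan assay must tell apart. They are RefSeq sequences (GRCm38.p6), 5′ to 3′, with the seed in capitals, and all 5 names were matched, miR-195 and miR-497 as miR-195a-5p and miR-497a-5p.
miR-15a: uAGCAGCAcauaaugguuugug
miR-15b: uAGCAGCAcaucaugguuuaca
miR-16: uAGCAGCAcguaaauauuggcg
miR-195: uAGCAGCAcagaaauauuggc
miR-497: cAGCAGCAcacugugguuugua
All 7 seed bases were identical in the 5 members. Over the first 21 bases, 10 positions were identical in all 5, and 3 of these lay after base 8. The closest pair was miR-16 and miR-195, with 2 different bases, followed by miR-15a and miR-15b with 3 and miR-15a and miR-497 with 4. The most distant pair was miR-16 and miR-497, with 10.

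The members came from 3 clusters of neighbouring hairpins. Mature miR-15a lies at chr14:61632075-61632096 on the minus strand, and a copy of miR-16 at chr14:61631936-61631957 starts 139 bases away on the same strand. Both hairpins lie within the bounds of the long noncoding RNA gene Dleu2. Mature miR-15b lies at chr3:69009775-69009796 on the plus strand, and the other copy of miR-16 at chr3:69009918-69009939 starts 143 bases away. These hairpins lie within the bounds of Smc4, which encodes a condensin subunit. The miR-16 assay reads a sequence that both copies share, so its Ct is the sum of both loci. On the plus strand of chromosome 11, miR-497 (chr11:70234730-70234751) and miR-195 (chr11:70235062-70235082) start 332 bases apart.

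Values are given as Ct, where a higher Ct means less RNA, and as a level, which is the mean Ct of 5 control RNAs in the same sample minus the Ct of the miRNA. A difference of 1 in the level is 1 log2 unit if each cycle doubles the product, but the efficiency of the assays was not measured. The mean Ct of the control RNAs was 19.9 ± 0.46 (SD, n = 3) in EC-Dicerflox and 19.7 ± 0.39 (n = 3) in EC-DicerWT. The third replicates of both groups stood apart together: in 22 assays both lay above or below every other sample by over 2 cycles. None of the 5 members was among these, and their widest such gap was 0.21 cycles, in miR-15b. What separates the third replicates was not tested, and changes are therefore also given over replicates 1 and 2 alone. Marker miRNAs of vessel wall cells were read early. miR-145 and miR-143, of smooth muscle, crossed the threshold at mean Ct values of 14.7 and 16.2, and miR-126-3p, of endothelium, lay between 17.2 and 17.8. An early Ct was not particular to these cell types, since the mean Ct was 18.6 for miR-133a, of striated muscle. miR-126-5p, also of endothelium, was later, at a mean Ct of 20.8.

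Of the 5 members, miR-16 was the earliest to cross the threshold. Its Ct was 18.367, 18.826 and 19.026 in EC-Dicerflox replicates 1 to 3 and 18.426, 18.282 and 18.262 in EC-DicerWT replicates 1 to 3. After subtraction from the controls, its level was 1.07, 1.05 and 1.33 in EC-Dicerflox and 1.14, 1.16 and 1.91 in EC-DicerWT. The highest level was that of EC-DicerWT replicate 3, and the other 5 samples of the 2 groups were interleaved. The change was -0.26 ± 0.29 (SE) on the log2 scale, with a 95% interval of -1.001 to 0.49 (adjusted P = 0.99, limma), which placed EC-Dicerflox at 83.8% of EC-DicerWT. This value rested on 1 sample, since the change was -0.0047 without EC-DicerWT replicate 3. Over replicates 1 and 2 alone it was -0.09.

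miR-195, which differs from miR-16 in only 2 bases but is made from another cluster, was the second to appear. It has been studied in the postnatal heart, where it restrains division of muscle cells. Its Ct was 19.606, 19.739 and 19.837 in EC-Dicerflox and 19.366, 19.434 and 19.949 in EC-DicerWT. Its level was -0.17, 0.13 and 0.52 in EC-Dicerflox and 0.20, 0.01 and 0.22 in EC-DicerWT. The lowest and the highest of the 6 levels were both EC-Dicerflox samples, and the EC-DicerWT samples lay between them. The change was 0.02 ± 0.26 (SE), with an interval of -0.63 to 0.67 (adjusted P = 0.99, limma), and replicates 1 and 2 alone gave -0.12.

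miR-15b, the partner of miR-16 within Smc4, had Ct values of 21.934, 21.646 and 22.257 in EC-Dicerflox and 21.953, 20.969 and 22.167 in EC-DicerWT. Its level was -2.49, -1.77 and -1.90 in EC-Dicerflox and -2.38, -1.52 and -1.999 in EC-DicerWT. Replicate 1 was the lowest and replicate 2 the highest in each group. The ranges of the groups overlapped, with the lowest of the 6 samples in EC-Dicerflox and the highest in EC-DicerWT. The SD of its level was 0.38 in EC-Dicerflox and 0.43 in EC-DicerWT. The change of miR-15b was -0.09 ± 0.34 (SE), with an interval of -0.95 to 0.78 (adjusted P = 0.99, limma), and -0.18 over replicates 1 and 2 alone.

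miR-15a, the partner of miR-16 within Dleu2, had Ct values of 21.506, 22.585 and 22.704 in EC-Dicerflox and 21.912, 21.723 and 22.354 in EC-DicerWT. Its level was -2.07, -2.71 and -2.35 in EC-Dicerflox and -2.34, -2.28 and -2.19 in EC-DicerWT. The EC-DicerWT samples lay close together, within the range of the EC-Dicerflox samples. The change was -0.11 ± 0.25 (SE), with an interval of -0.73 to 0.52 (adjusted P = 0.99, limma), and -0.08 over replicates 1 and 2 alone.

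miR-497, the latest member, is made beside miR-195. Its Ct was 22.690, 22.458 and 22.953 in EC-Dicerflox and 22.193, 22.145 and 22.830 in EC-DicerWT, and its level was -3.25, -2.59 and -2.60 in EC-Dicerflox and -2.62, -2.70 and -2.66 in EC-DicerWT. EC-Dicerflox replicate 1 was the lowest of the 6 samples, while the other 2 EC-Dicerflox samples were above every EC-DicerWT sample. The change was -0.15 ± 0.26 (SE), with an interval of -0.82 to 0.52 (adjusted P = 0.99, limma). Over replicates 1 and 2 alone it was -0.26, and without EC-Dicerflox replicate 1 it was 0.07. That animal also had the lowest miR-15b and miR-195 of all 6 samples, and the highest miR-15a.

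**Figure D1:**
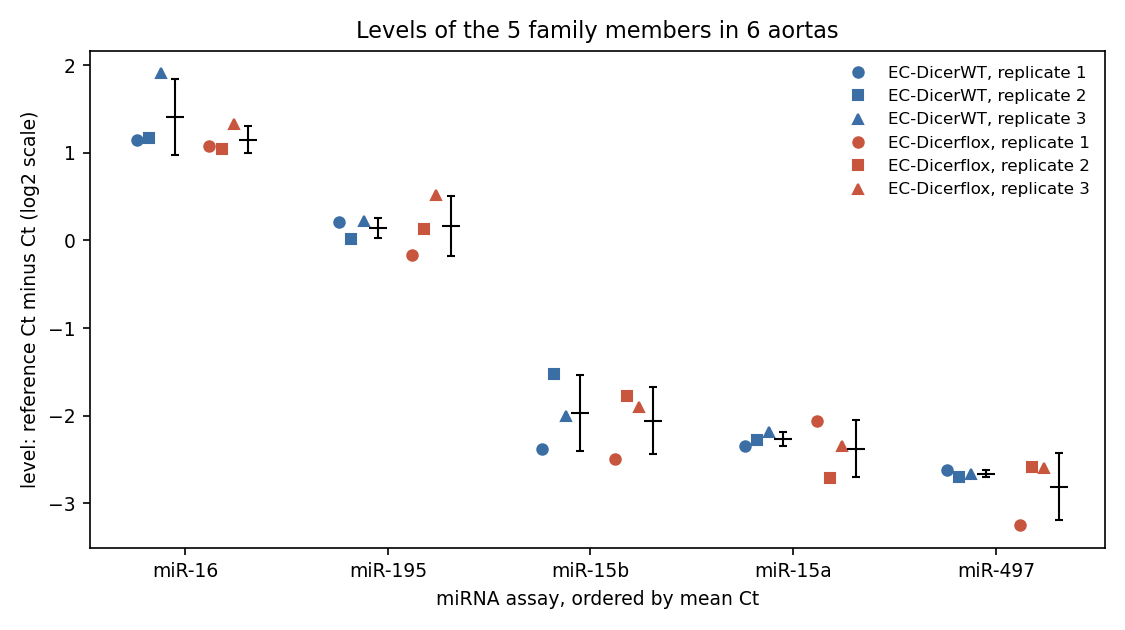
Level of each family member in each sample (vertical axis, mean control Ct minus Ct, log2 scale; horizontal axis, the 5 members), with points for single samples and bars for the group mean ± SD (n = 3). The EC-Dicerflox and EC-DicerWT points overlap for every member, and the spread is narrowest for miR-497 in EC-DicerWT (SD 0.04).

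The groups overlapped for all 5 members, so 0 of 5 were separated, while the groups did not overlap in 43 of all 439 assays tested (9.79%). No member had an unadjusted P under 0.05 in limma, where 21 of the 439 assays (4.78%) did, and 0 of the 439 (0%) had an adjusted P under 0.05. With each assay's own variance in place of the moderated one, the members also gave 0 such unadjusted P values. The change was below 0 in 4 of 5 members, a direction shared by 61.7% of all assays tested. Its median was -0.11 over the members and -0.10 over the 439 assays. The median size of the change, regardless of sign, was 0.11 for the members and 0.17 for the 144 assays with a mean Ct under 25, members included, and that of miR-16 was above the latter. The intervals bound what these 6 samples could show. The lowest bound of any member was -1.001, for miR-16, which is 50.0% of the EC-DicerWT level, and the highest was 0.78, for miR-15b, which is 171%. Changes beyond these bounds lie outside the interval of every member. The interval of each single member is narrower, for example -0.63 to 0.67 for miR-195. Changes within a member's own interval could not be told from the spread between animals. The intervals hold for the mean of the 5 control RNAs as reference, and with U6 alone the change of miR-16 was -0.63.

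**Figure D2:**
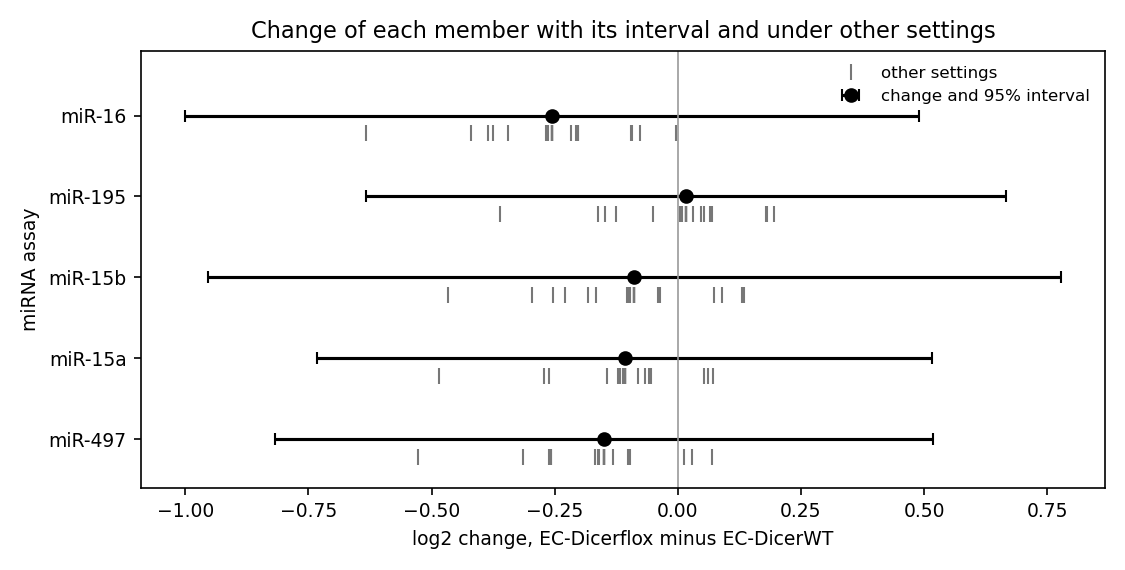
Change of each member from EC-DicerWT to EC-Dicerflox (log2, EC-Dicerflox minus EC-DicerWT), with the 95% interval from limma as a bar. Grey ticks below each bar are the changes of that member under the alternatives in reference, filter, variance model and samples, and not single samples. Every interval includes 0, and the point estimates run from -0.26 for miR-16 to 0.02 for miR-195.

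**Figure D3:**
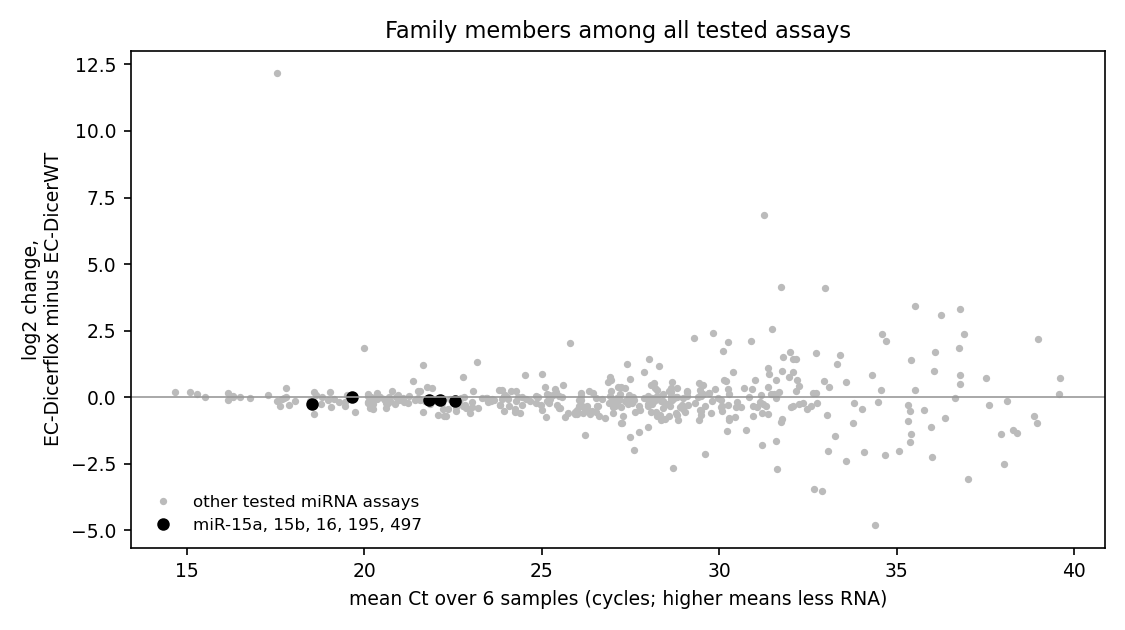
Change of each of the 439 assays tested (vertical axis, log2, EC-Dicerflox minus EC-DicerWT) against its mean Ct over the 6 samples (horizontal axis, cycles), with the 5 family members in black. The members lie between mean Ct 18.5 and 22.5, on the early side of the arrays, and close to 0.

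miR-16 and miR-195 differed from miR-15b, miR-15a and miR-497 by far more than any member differed between the groups. Among the 335 miRNA assays of card A, the array card that held all 5, miR-16 ranked 16th by mean Ct and miR-195 ranked 30th. The ranks of miR-15b, miR-15a and miR-497 were 66, 71 and 77. miR-195 crossed the threshold 1.12 ± 0.32 cycles after miR-16 (SD, n = 6), later in 6 of 6 samples. miR-15b followed miR-195 by 2.17 ± 0.38 cycles, also in 6 of 6. Of the last 3, miR-497 came after miR-15b by 0.72 ± 0.30 cycles, and by at least 0.24 cycles in every sample. The place of miR-15a was not settled by these samples. It came after miR-15b by 0.31 ± 0.51 cycles in 4 of 6 samples, and miR-497 came after miR-15a by 0.41 ± 0.43 cycles in 5 of 6. These are differences between assays, whose efficiencies may differ and were not measured, and not counts of molecules.

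Neighbours in a cluster were compared within each sample, where the control RNAs cancel. For miR-195 and miR-497, the level of miR-195 exceeded that of miR-497 by 3.08, 2.72 and 3.12 in EC-Dicerflox and by 2.83, 2.71 and 2.88 in EC-DicerWT. The difference between the group means was 0.17 (exact permutation test, two-sided, P = 0.3, adjusted P = 0.8 over 3 pairs). This was the steadiest of the 10 pairs of members, with an SD of 0.18 over the 6 samples. For the Dleu2 pair, miR-15a minus miR-16 was -3.14, -3.76 and -3.68 in EC-Dicerflox and -3.49, -3.44 and -4.09 in EC-DicerWT, and the group means differed by 0.15 (exact permutation P = 0.6, adjusted P = 0.8). For the Smc4 pair, miR-15b minus miR-16 was -3.57, -2.82 and -3.23 in EC-Dicerflox and -3.53, -2.69 and -3.91 in EC-DicerWT, and the group means differed by 0.17 (exact permutation P = 0.8, adjusted P = 0.8). In all 3 pairs the groups overlapped, and the smallest P that 3 against 3 samples allow is 0.1. Both miR-16 pairs included the sum of the miR-16 loci, so neither is the ratio of 1 precursor's products. The least steady pair was miR-15a and miR-15b, which differ in 3 bases and come from different chromosomes, with an SD of 0.51.

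Across the 6 samples, the members did not move as 1 block. Pearson's r between the levels of 2 members, given as a description over 6 points that share cards and control RNAs, was above 0 in 7 of 10 pairs, with a median of 0.25. It was highest between miR-195 and miR-497 (0.74), followed by miR-15b and miR-497 (0.59). The values were 0.34 for the Dleu2 neighbours miR-15a and miR-16, and 0.09 for the Smc4 neighbours miR-15b and miR-16. The 3 values below 0 all involved miR-15a, with miR-497 (-0.66), miR-15b (-0.47) and miR-195 (-0.32). Even the closest pair was not exceptional, since miR-497 ranked 60th among the 393 other assays by its r with miR-195, and miR-195 ranked 33rd by its r with miR-497. The mean level of the 5 members was -1.38, -1.18 and -0.999 in EC-Dicerflox and -1.20, -1.06 and -0.94 in EC-DicerWT. Of the 389 non-members detected in every sample, those most like this mean were miR-96 and miR-127 (both r = 0.97), miR-340-3p (0.96), miR-449b (0.94) and miR-107 (0.93). These were picked as the highest of 389 values over 6 points, and were not tested. With the mean of all detected assays as the reference, r was 0.80 for miR-96, 0.82 for miR-107 and 0.96 for miR-127. With that reference, 2 of the 5 remained among the closest 5.

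Other miRNAs on the cards share all or part of the seed, and their sequences show how far the family reaches beyond its 5 named members. In capitals are bases 2 to 8.
miR-322: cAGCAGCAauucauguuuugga
miR-503: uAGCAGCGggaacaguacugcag
miR-103: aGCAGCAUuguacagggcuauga
miR-107: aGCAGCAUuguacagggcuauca
miR-322 has the family's seed, and miR-503, its neighbour on the X chromosome, shares the first 6 bases of it. The first 7 bases of miR-103 equal the seed of miR-15a, shifted by 1 base towards the 5′ end, and miR-107 differs from miR-103 in 1 base. In RefSeq, 10 mature mouse miRNAs have the family's seed, and 6 of them had an assay here.

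miR-322 was read by an assay on each card, and the point estimates of its change differed. Their 95% intervals overlapped, at -1.07 to 1.05 on card A and -0.09 to 1.59 on card B. A difference between the assays was not tested. Ct was 25.129, 24.902 and 24.848 in EC-Dicerflox and 24.669, 24.941 and 24.765 in EC-DicerWT on card A, and 26.138, 26.692 and 27.053 against 27.672, 26.495 and 27.483 on card B. The change in level was -0.0070 ± 0.42 (SE) on card A and 0.75 ± 0.33 on card B (unadjusted P = 0.070, adjusted P = 0.99, limma), where all EC-Dicerflox levels were above those of EC-DicerWT. Without EC-DicerWT replicate 1 the card B value was 0.44. For miR-503 the change was 0.24 ± 0.46 (adjusted P = 0.99, limma), and leaving out single samples moved it between 0.0095 and 0.60. Of these relatives, miR-103 had the only unadjusted P under 0.05. Its Ct was 22.482, 22.821 and 22.905 in EC-Dicerflox and 21.727, 21.795 and 22.113 in EC-DicerWT, later in every EC-Dicerflox sample. The change in level was -0.70 ± 0.25 (SE), with an unadjusted P of 0.034 that did not hold after adjustment over all 439 assays (adjusted P = 0.98, limma). miR-107 differed by -0.57 ± 0.39 (adjusted P = 0.99, limma), and by -0.30 without EC-DicerWT replicate 3 and -0.36 without EC-Dicerflox replicate 1. Thus the assays with the seed shifted by 1 base had lower point estimates than any of the 5 members, but a difference between them and the members was not tested.

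Passenger strands were read for miR-15a and miR-16 and are set beside the guide strands because both strands leave Dicer from 1 hairpin. The passenger of miR-15a is shown with its bases 2 to 8 in capitals, which are not the family's seed.
miR-15a*: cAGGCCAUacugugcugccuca
Its Ct was 30.330, 31.651 and 26.045 in EC-Dicerflox and 29.374, 29.727 and 25.879 in EC-DicerWT. The third replicates of both groups were at least 3.33 cycles earlier than any other sample, in contrast to miR-15a itself, in which the third replicates lay within or near the range of the rest. As a result, miR-15a* came 7.46 to 9.07 cycles after miR-15a in replicates 1 and 2 of both groups, but 3.34 and 3.53 cycles after it in the third replicates. Its change of -0.85 ± 2.09 (SE; adjusted P = 0.99, limma) therefore carried an error larger than itself, and it was -1.29 over replicates 1 and 2 alone.

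miR-16* did not share this pattern. Its Ct was 29.132, 29.411 and 29.882 in EC-Dicerflox and 28.632, 29.249 and 30.524 in EC-DicerWT. In raw Ct the third replicates were the latest of the 6 samples rather than the earliest. The mean Ct of the control RNAs was also latest there, at 20.4 in EC-Dicerflox and 20.2 in EC-DicerWT. On the level, the third replicate was the highest of EC-Dicerflox (-9.53) and the lowest of EC-DicerWT (-10.36). miR-16* followed miR-16 by 10.2 to 11.0 cycles in replicates 1 and 2 and by 10.9 and 12.3 cycles in the third replicates. The change was 0.15 ± 0.38 (SE; adjusted P = 0.99, limma), and -0.18 over replicates 1 and 2 alone. The name miR-16* does not say from which of the miR-16 hairpins the strand comes.

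**Figure D4:**
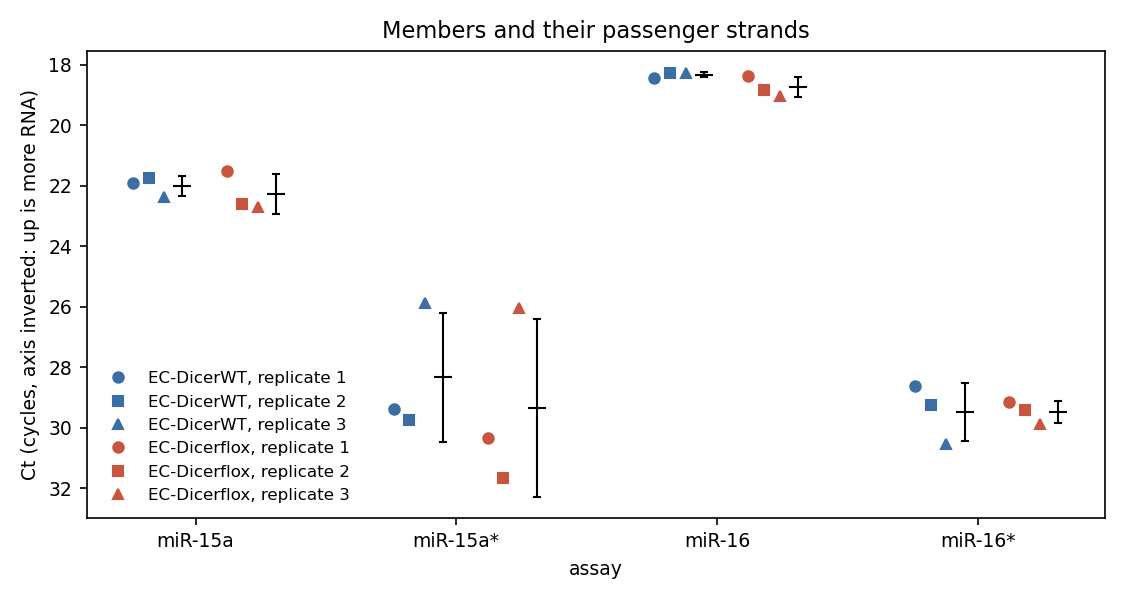
Ct of miR-15a, miR-16 and their passenger strands in each sample (vertical axis inverted, cycles, so that more RNA is higher), with symbols for replicates and bars for the group mean ± SD (n = 3). Of these assays, only miR-15a* has the third replicates more than 2 cycles apart from the rest, at 26.045 and 25.879 against 29.374 to 31.651 in the other samples.

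Cell type markers were read beside the members because whole aortas were used. The levels of a list were summed on the linear scale, and the sum is given as log2. The endothelial sum was set mainly by miR-126-3p. Both endothelial markers are themselves products of Dicer, so their level need not follow the number of endothelial cells. The summed level of the endothelial miR-126-3p and miR-126-5p ranged from 1.98 to 2.76 in EC-Dicerflox and from 2.14 to 2.82 in EC-DicerWT, with changes of -0.13 and 0.25 for the strands. The smooth muscle pair miR-143 and miR-145 ranged from 5.34 to 6.06 and from 5.28 to 5.79. The summed ranges overlapped also for 4 leukocyte assays (changes of -0.23 to 0.07) and for 4 tested assays of striated muscle, a sum set mainly by the early miR-133a. Among these 4, changes ran from -1.65 to 0.23, and miR-208, a late assay with a mean Ct of 31.6, was lower in every EC-Dicerflox sample (-1.65 ± 0.53, SE; unadjusted P = 0.024, adjusted P = 0.98, limma). The erythrocyte marker miR-451 differed by 0.05 between the groups, and miR-16 is itself known to be abundant in red cells. The part of these cells in the levels of the members was not tested.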

How the data were processed

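Total RNA of 3 EC-Dicerflox and 3 EC-DicerWT aortas, biological replicates per the labels, was read on TaqMan array cards A and B. The authors deposited 1 table of raw Ct values, not normalized, with undetected wells at 40. The Ct threshold settings are not given in the sources used here. Each assay's Ct was subtracted from a reference, the average over both cards of Y1, U87, U6, snoRNA202 and snoRNA135, which gave its level. Assays with Ct under 40 in at least 3 of 6 samples were tested (439 of 596) with limma 3.58.1 in R 4.3.3 (lmFit and eBayes, two-sided, Benjamini-Hochberg adjustment over all tested assays). Cluster pairs were compared by exact permutation over the 20 assignments of samples (SciPy 1.17.1). Scripts were tested on simulated levels. Alternatives changed the reference, the filter, the variance model and the samples. Arrays of Ct values have no read depth, and their number limits the precision. Sequences came from RefSeq by name. Members, marker lists (endothelium, smooth muscle, leukocytes, erythrocytes, striated muscle), related miRNAs and tests were chosen with earlier results of these data known. The text names the members, assays that share seed bases, passenger strands, markers and the 5 assays most like the members' mean.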

Additional observations from a re-analysis of the deposited data

How the results depend on the processing

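Under 23 alternatives each, adjusted P values of the 5 members ran from 0.83 to 1.00 (limma), and no unadjusted P was under 0.05; the lowest was 0.17, for miR-16. The change was below 0 in 23 alternatives for miR-16, 20 for miR-15a, 20 for miR-497, 19 for miR-15b and 5 for miR-195. The sign changed with the reference for every member but miR-16, and with the samples left out for the same 4. With U6 alone the median of all 439 assays was -0.48 and that of the members -0.49, and miR-195 changed by -0.36, miR-503 by -0.14 and miR-16* by -0.22. With U6 and snoRNA135, miR-195 changed by -0.15 and miR-16* by -0.010. U87 alone, Y1 alone and snoRNA202 alone were chosen as references after seeing the data. With U87 alone, the changes were 0.071 for miR-15a, 0.091 for miR-15b, 0.029 for miR-497 and 0.17 for miR-322 on card A. With Y1 alone they were 0.054, 0.073, 0.012 and 0.15. miR-322 on card A changed by 0.046 with the global mean and by 0.042 with snoRNA135 alone. The median r between members was 0.30 with the global mean as reference.

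Over replicates 1 and 2 alone, miR-195 changed by -0.12, miR-16* by -0.18 and the pair miR-15b minus miR-16 by -0.087. Leaving out 1 sample at a time gave changes from -0.26 to 0.061 for miR-15a, -0.30 to 0.13 for miR-15b, -0.39 to -0.0047 for miR-16, -0.16 to 0.18 for miR-195 and -0.26 to 0.070 for miR-497. The range was -0.30 to 0.30 for miR-322 on card A, 0.44 to 0.97 for miR-322 on card B, 0.0095 to 0.60 for miR-503, -0.85 to -0.59 for miR-103, -0.85 to -0.30 for miR-107, -2.74 to 0.59 for miR-15a* and -0.15 to 0.49 for miR-16*. For the pairs it was -0.062 to 0.26 (miR-15a minus miR-16), -0.10 to 0.51 (miR-15b minus miR-16) and 0.10 to 0.29 (miR-195 minus miR-497). The cause was not tested.

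Same-numbered samples correlated at 0.24, 0.030 and 0.39 in their deviations from the group means over 394 assays. Samples with unlike numbers ran from -0.40 to 0.32. The highest of these, EC-Dicerflox replicate 1 with EC-DicerWT replicate 2, exceeded the 0.24 of the first replicates. The numbers were therefore not taken as pairs. With the replicate number as a block, the change of miR-16 was -0.26 as before, no member had an unadjusted P under 0.05, and 17 assays did, against 21 without the block. Between settings, this count over all assays ran from 6 with U87 alone to 28 with a batch term for the third replicates. It was 11 with U6, with Y1 and without EC-DicerWT replicate 3, 8 without EC-Dicerflox replicate 2 and 13 and 14 without EC-DicerWT replicate 1 and EC-Dicerflox replicate 1. At an adjusted P under 0.05 it was 1 with the batch term and 1 over replicates 1 and 2, in neither case a member, and 0 in the others. With 3 mice in a group, the width of the intervals limits what could be seen; all members crossed the threshold well before cycle 40.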
